A study of Homo sapiens with 6 samples.

Results

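The genes described here are 44 interferon-stimulated antiviral genes, chosen by symbol for their known function and found as rows of the deposited expression table, which holds 23524 genes. RNA-Seq had been performed on 6 libraries of Hep G2, a human cell line from a hepatocellular carcinoma. The 3 control libraries came from cells with the empty vector, and the 3 EFTUD2 libraries came from cells stably overexpressing EFTUD2, a GTPase of the spliceosome. Both kinds of cell received their vector by lentivirus and were selected in puromycin as a stable line, and the labels name no interferon treatment for either. The question was which interferon-stimulated genes differ between these cells, as EFTUD2 is known for a role in innate immunity. Nothing in the labels says whether the 3 replicates of a group were separate cultures, so the p-values measure the spread between these libraries, which may be technical.

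Interferons bind receptors at the cell surface, where the kinases JAK1 and TYK2 phosphorylate transcription factors that include STAT2. With IRF9 a complex forms that binds the interferon-stimulated response element in promoters, and a large set of antiviral genes is switched on. IRF1, IRF3 and IRF7 bind closely related elements, so some of these genes can also be induced by virus sensing without interferon. Hepatocytes and liver tumor cells respond to type I and type III interferons in this way, and many of these genes restrict hepatitis viruses.

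The overexpressed gene itself followed the labels. EFTUD2 was at 41.14, 54.35 and 46.34 FPKM (fragments mapped to the gene, scaled for transcript length and library size) in the control libraries and at 106.62, 102.90 and 109.48 FPKM in the EFTUD2 libraries. The groups did not overlap, and the log2 fold change was 1.16 ± 0.12 (SE, n = 3 and 3, limma adjusted p = 0.13). Here and below, log2 fold changes are EFTUD2 minus control on the log2(FPKM + 1) scale, which understates the change of genes near or below 1 FPKM. All 10 hepatocyte markers were expressed, with summed levels of 6933 to 10646 FPKM in control and 9285 to 14115 FPKM in EFTUD2 libraries. EFTUD2 replicate 3 stood apart from the other libraries: it held the lowest of the 6 values for 45.7% of all genes tested, and limma's array weights gave it 0.121, against 0.48 to 4.11 for the other 5. Results that rest on it are therefore given with and without it.

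The 3 EFTUD2 libraries were not alike in these genes, and the largest number of members was highest in EFTUD2 replicate 2. Of the 42 members with a mean of at least 0.1 FPKM, which entered the test, EFTUD2 replicate 2 was the highest of the 6 libraries in 30, whereas this held for 16.4% of all 17224 genes tested. EFTUD2 replicate 3 was the lowest in 24 of the 42, close to its share of 45.7% among all genes. Both held for 16 members, against 6.93% of all genes. Over the 42 members, the median log2 difference from the control mean was 0.19 in EFTUD2 replicate 1, 0.42 in replicate 2 and −0.20 in replicate 3. Over all genes tested the same medians were −0.05, −0.04 and −0.15. Each control library, compared with the mean of the other controls, had a median between −0.01 and 0.03 for the members. Summed over the 44 genes, the level was 417 to 500 FPKM with the empty vector, compared with 617, 831 and 437 FPKM in EFTUD2 replicates 1, 2 and 3. In such bulk libraries, fewer cells of a type and less RNA per cell cannot be told apart.

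**Figure D1:**
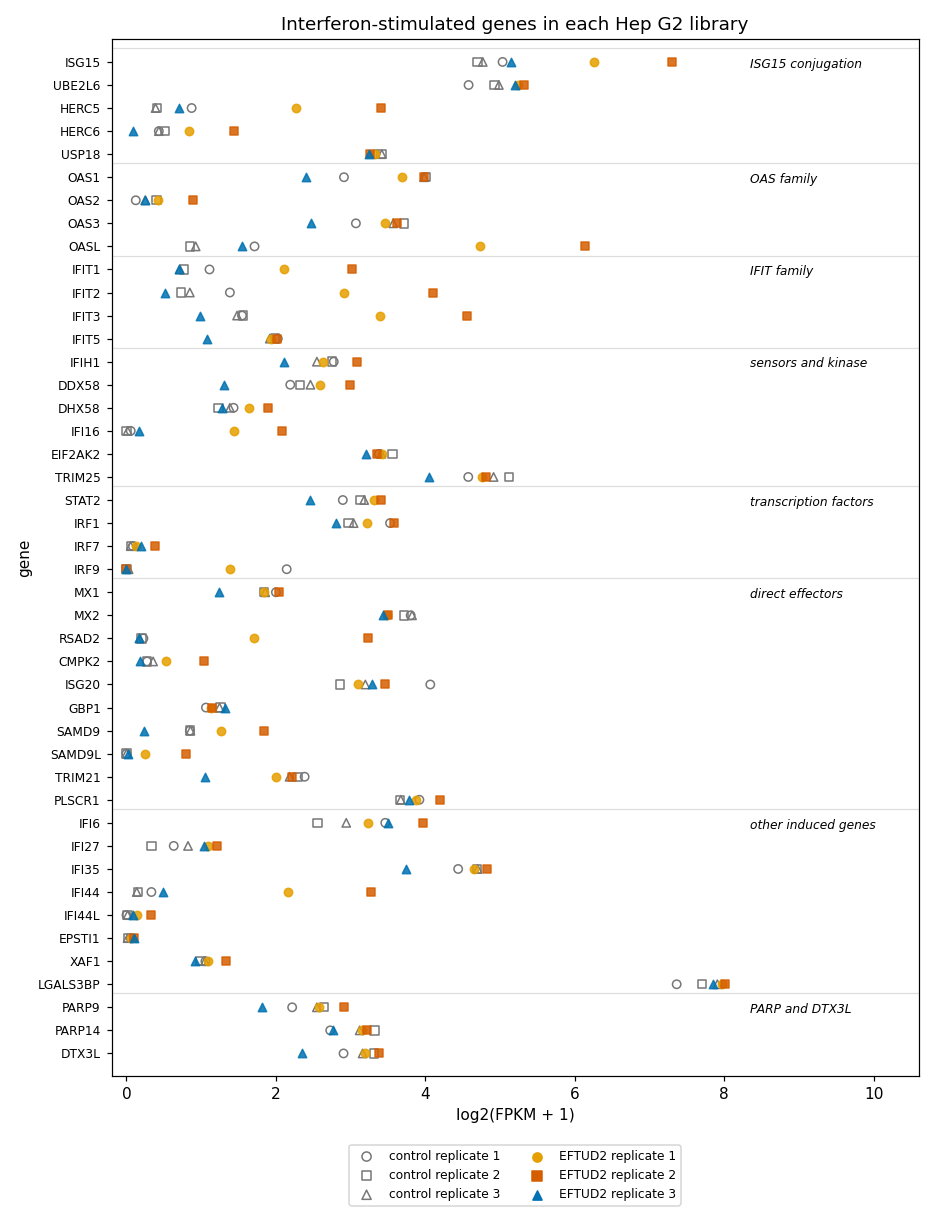
Level of each of the 44 genes, as log2(FPKM + 1) on the x axis, in the 3 control libraries (open symbols) and the 3 EFTUD2 libraries (filled symbols), with genes grouped by role. In the ISG15, OASL and IFIT rows the squares of EFTUD2 replicate 2 lie to the right of the controls for all but IFIT5, and the triangles of replicate 3 lie close to or left of them.

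With all 6 libraries, 0 of the 42 members passed an adjusted p of 0.05 in limma, as did 0 of all genes tested (0%). At an unadjusted p under 0.05, 7 members were higher in EFTUD2 cells (ISG15, OASL, IFI16, IFI27, IFI44, HERC5 and UBE2L6), whereas 4.40% of all genes were. Only MX2 was lower at that level, against 7.90% of all genes. With median-of-ratios scaling these counts were 10 and 0, and the share of higher genes among all unadjusted calls was 57.7% in place of 35.7%. The count of higher members depended on single libraries. It was 3, 2 and 3 without control replicates 1, 2 and 3, and 2, 3 and 19 without EFTUD2 replicates 1, 2 and 3. All 3 EFTUD2 libraries were above every control for 7 members (ISG15, IFI16, IFI27, IFI44, IRF7, SAMD9L and UBE2L6), against 7.93% of all genes. For SAMD9L this rests on 0.01 FPKM in EFTUD2 replicate 3 against listed values of 0. All 3 were below every control for MX2 and USP18, against 19.4% of all genes, although USP18 had a log2 fold change of 0.00 with median-of-ratios scaling and 0.03 after quantile normalization. Without control replicate 1 these counts were 11 above and 4 below, without EFTUD2 replicate 2 there were 4 below, and without EFTUD2 replicate 3 there were 22 above. The median log2 fold change was 0.12 over the 42 members and −0.07 over all genes tested.

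Without EFTUD2 replicate 3, 5 members passed an adjusted p of 0.05 in limma, all of them higher in EFTUD2 cells. They were OASL, IFIT2, IFIT3, IFI16 and IFI44, and 0.891% of the 17166 genes tested were higher in the same fit. Leaving out any other library gave 0 members. Without EFTUD2 replicate 2, the log2 fold changes of ISG15, HERC5, OASL, IFI16 and IFI44 were 0.87, 0.93, 1.97, 0.78 and 1.12. Without EFTUD2 replicate 3, both remaining EFTUD2 libraries exceeded every control for 22 of the 42 members, against 14.8% of all genes. Both lay below every control for MX2 and USP18, against 25.2% of all genes. When all 6 libraries were kept and weighted by limma's array weights, 9 members were higher at an adjusted p under 0.05 (ISG15, OASL, IFIT1, IFIT2, IFIT3, IFI16, IFI44, RSAD2 and HERC5), against 4.21% of all genes. MX2 was then the only lower member, against 3.66% of all genes.

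**Figure D2:**
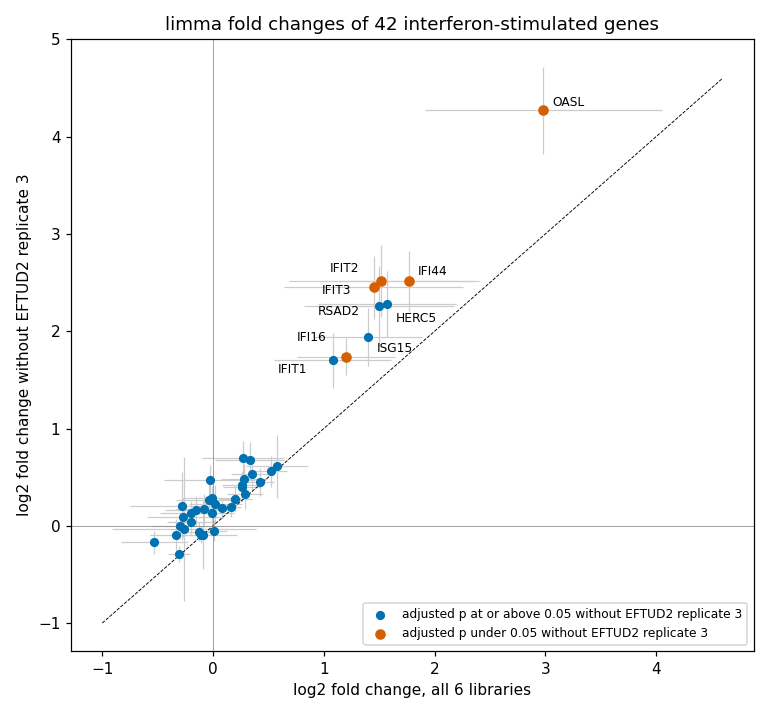
Log2 fold change of the 42 tested genes from limma with all 6 libraries (x axis) and without EFTUD2 replicate 3 (y axis), with bars of 1 SE and a dashed line of equality. The 5 orange points passed an adjusted p of 0.05 without that library, and OASL lies highest, at 2.98 with all libraries and 4.27 without it.

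Promoter sequences were looked at because many of these genes were highest in the same library. Of the 44 genes, 37 had a promoter in the RefSeq table for GRCh38.p14 (250 bases before to 50 after the start used there). For IFI16, IFI27, ISG20 and XAF1 that start lies inside the annotated span of the gene, not at its first base. The IFI16 span starts at chr1:158999976, and the window searched was chr1:159008741-159009040. Sequence around the first base of these genes was thus not searched. The core of the interferon-stimulated response element was searched as GAAANNGAAA, or TTTCNNTTTC on the other strand, and overlapping matches were counted separately. It was present in 22 of these 37 promoters (59.5%) and in 996 of all 27305 promoters (3.65%). As the genes were chosen as interferon-stimulated, the higher share could come from that choice alone. The 15 members without a match included UBE2L6, HERC6, IFI16, RSAD2, CMPK2 and SAMD9L. The 7 without a promoter sequence included IFIT2 and OASL. The lines below show 1 match each for some genes with a match, from the ISG15, IFIT and IFI44 groups and SAMD9. They are written 5′ to 3′ on the strand of the gene, with the match in capitals.
ISG15: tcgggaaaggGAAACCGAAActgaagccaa
HERC5: aaacattatgTTTCGTTTTCcactggagct
IFIT1: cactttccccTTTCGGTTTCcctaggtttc
IFIT3: tttaaattagTTTCACTTTCcagtttcctc
IFIT5: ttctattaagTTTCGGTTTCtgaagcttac
IFI44: gcacactgagTTTCAGTTTCctttctct
SAMD9: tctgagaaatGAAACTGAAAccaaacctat
These windows lie at chr1:1013380-1013409 (plus strand) for ISG15, chr4:88457035-88457064 (plus) for HERC5 and chr10:89392510-89392539 (plus) for IFIT1. Those of IFIT3 and IFIT5 lie at chr10:89327865-89327894 and chr10:89414513-89414542 (both plus), that of IFI44 at chr1:78649761-78649788 (plus) and that of SAMD9 at chr7:93118096-93118125 (minus). The match began 107, 74, 103, 122, 45, 18 and 136 bases before the start of ISG15, HERC5, IFIT1, IFIT3, IFIT5, IFI44 and SAMD9. A match is a description of the letters, not evidence of binding. The median log2 fold change was 0.10 in the 20 tested members with a match and 0.02 in the 15 without, and without EFTUD2 replicate 3 it was 0.23 and 0.29.

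Among the genes of ISG15 conjugation, ISG15 and HERC5 differed most. ISG15, a ubiquitin-like protein that is attached to newly made proteins, was at 31.75, 24.98 and 26.25 FPKM in control cells, against 75.26, 156.89 and 34.52 FPKM in EFTUD2 replicates 1 to 3. All 3 EFTUD2 libraries were above the controls, replicate 3 only slightly. The log2 fold change was 1.40 ± 0.49 (SE, n = 3 and 3, limma adjusted p = 0.40), and 1.94 ± 0.30 without EFTUD2 replicate 3 (limma adjusted p = 0.053). HERC5, the ligase that attaches ISG15, was at 0.83, 0.33 and 0.31 FPKM with the empty vector, compared with 3.83, 9.56 and 0.63 FPKM in EFTUD2 cells. EFTUD2 replicate 3 lay within the control range. Its log2 fold change was 1.57 ± 0.62 (limma adjusted p = 0.40), or 2.28 ± 0.34 without EFTUD2 replicate 3 (limma adjusted p = 0.051). UBE2L6, the conjugating enzyme of the same pathway, was steadier, at 22.89, 29.42 and 30.64 FPKM in control cells, against 36.69, 38.89 and 35.75 FPKM in EFTUD2 cells. It was higher in 3 of 3 EFTUD2 libraries by a log2 fold change of 0.42 ± 0.13 (limma adjusted p = 0.40). HERC6, the neighbor of HERC5 on chromosome 4, was at 0.35 to 0.43 FPKM with the empty vector, compared with 0.79, 1.70 and 0.06 FPKM in EFTUD2 cells. USP18, the protease that removes ISG15 and damps receptor signaling, was nearly level, at 9.07 to 9.68 FPKM in control cells, against 8.47 to 9.05 FPKM in EFTUD2 cells, a log2 fold change of −0.11 ± 0.11 (limma adjusted p = 0.62).

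In the OAS family, OASL stood apart from the 3 OAS genes. The OAS enzymes make oligoadenylates that activate RNase L, whereas OASL lacks this activity and enhances RIG-I signaling. OASL was at 2.28, 0.80 and 0.90 FPKM with the empty vector, compared with 25.58, 69.58 and 1.91 FPKM in EFTUD2 replicates 1 to 3. EFTUD2 replicates 1 and 2 were 19.3 and 52.4 times the control mean, and replicate 3 lay inside the control range. With a pseudocount of 1, OASL had the largest fold change of the 42 tested members, at 2.98 ± 1.07 on the log2 scale (SE, n = 3 and 3, limma adjusted p = 0.40). With a pseudocount of 0.01 it was 3.66, below IFI16 (5.38), IFI44 (3.93) and SAMD9L (3.85), which were near 0 in the controls. Without EFTUD2 replicate 3 it was 4.27 ± 0.45 (limma adjusted p = 0.026). OAS1 was at 6.52, 15.13 and 14.82 FPKM in control cells, against 11.86, 14.74 and 4.28 FPKM in EFTUD2 cells. OAS3 was at 7.40, 12.09 and 10.88 FPKM with the empty vector, compared with 9.99, 11.27 and 4.52 FPKM in EFTUD2 cells. For both genes, EFTUD2 replicates 1 and 2 lay inside the control range and replicate 3 was lowest of all. OAS2 was low, at 0.09 to 0.32 FPKM in control cells, against 0.34, 0.85 and 0.19 FPKM in EFTUD2 cells. The OAS1, OAS3 and OAS2 genes lie side by side on chromosome 12 (GRCh38.p14, chr12:112906962-113011723).

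The IFIT family had the highest median of the 8 roles, with a log2 fold change of 1.27 over its 4 genes and 2.07 without EFTUD2 replicate 3. IFIT proteins recognize RNA whose ends lack the modifications of host RNA. IFIT1 was at 1.16, 0.70 and 0.64 FPKM with the empty vector, compared with 3.33, 7.08 and 0.63 FPKM in EFTUD2 cells. IFIT2, its partner, was at 1.61, 0.66 and 0.80 FPKM in control cells, against 6.54, 16.18 and 0.43 FPKM in EFTUD2 cells. IFIT3, which stabilizes IFIT1, was at 1.92, 1.94 and 1.79 FPKM with the empty vector, compared with 9.46, 22.61 and 0.98 FPKM in EFTUD2 cells. All 3 thus ran in the same order, with EFTUD2 replicate 3 below every control. Without that library the log2 fold change was 1.70 ± 0.28 for IFIT1 (limma adjusted p = 0.057), 2.52 ± 0.37 for IFIT2 (limma adjusted p = 0.048) and 2.45 ± 0.32 for IFIT3 (limma adjusted p = 0.039). With it, these were 1.08 ± 0.53, 1.52 ± 0.83 and 1.45 ± 0.81 (limma adjusted p of 0.42, 0.44 and 0.44). IFIT5 did not share the order of its relatives: it was at 2.78 to 3.07 FPKM in control cells, against 2.82, 3.05 and 1.11 FPKM in EFTUD2 cells, and its promoter window, printed above, also holds a match. The 4 genes lie within chr10:89302046-89420997 and overlap the annotated span of LIPA, so reads could be shared where strand was not used in counting.

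Of the RNA and DNA sensors, IFI16 was near 0 in the controls and higher in every EFTUD2 library. For the RIG-I-like receptors the groups overlapped with all 6 libraries. IFI16, a nuclear sensor of foreign DNA, was at 0.04, 0 and 0.01 FPKM with the empty vector, compared with 1.71, 3.24 and 0.12 FPKM in EFTUD2 cells. Its annotated span overlaps AIM2 and PYDC5. The log2 fold change was 1.20 ± 0.44 (limma adjusted p = 0.40), or 1.74 ± 0.19 without EFTUD2 replicate 3 (limma adjusted p = 0.027). DDX58, which encodes the RNA sensor RIG-I, was at 3.57, 4 and 4.51 FPKM in control cells, against 5.04, 6.95 and 1.46 FPKM in EFTUD2 cells. IFIH1, which encodes the sensor MDA5, was at 5.84, 5.74 and 4.85 FPKM with the empty vector, compared with 5.18, 7.5 and 3.33 FPKM in EFTUD2 cells. For both sensors EFTUD2 replicate 2 was highest and replicate 3 lowest. DHX58, the related protein LGP2, was at 1.35 to 1.70 FPKM in control cells, against 2.11, 2.73 and 1.43 FPKM in EFTUD2 cells. Without EFTUD2 replicate 3, DDX58 and DHX58 were above every control in both remaining EFTUD2 libraries, and IFIH1 was not. The log2 fold changes of DDX58, DHX58 and IFIH1 were then 0.47 ± 0.15, 0.42 ± 0.13 and 0.17 ± 0.16 (limma adjusted p of 0.22, 0.19 and 0.64). TRIM25, the ligase that activates RIG-I, was at 22.82, 33.77 and 29.13 FPKM with the empty vector, compared with 26.06, 27.04 and 15.59 FPKM in EFTUD2 cells. EIF2AK2, the kinase PKR that stops translation, was at 9.40 to 10.81 FPKM in control cells, against 8.20 to 9.67 FPKM in EFTUD2 cells.

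Of the transcription factors of the response, STAT2 and IRF1 had overlapping groups, and IRF7 was low but higher in every EFTUD2 library. IRF7, which drives the interferon genes, was at 0.06, 0.04 and 0.04 FPKM with the empty vector, compared with 0.09, 0.30 and 0.14 FPKM in EFTUD2 cells. The groups did not overlap, with a log2 fold change of 0.16 ± 0.09 (limma adjusted p = 0.43), or 1.58 with a pseudocount of 0.01. STAT2 was at 6.44, 7.78 and 8.07 FPKM in control cells, against 8.98, 9.62 and 4.48 FPKM in EFTUD2 cells. IRF1 was at 10.53, 6.83 and 7.22 FPKM with the empty vector, compared with 8.30, 10.97 and 6 FPKM in EFTUD2 cells. Both had their highest value in EFTUD2 replicate 2 and their lowest in replicate 3. Without EFTUD2 replicate 3, STAT2 was above every control in both remaining EFTUD2 libraries, at a log2 fold change of 0.29 ± 0.12 (limma adjusted p = 0.29). IRF1 still overlapped the controls, at 0.22 ± 0.20 (limma adjusted p = 0.62). IRF9 had listed values of 3.42, 0 and 0.02 FPKM in control cells, against 1.62, 0 and 0 FPKM in EFTUD2 cells, so its high and low values were mixed over both groups. A listed 0 may be a failed estimate in the quantification, which could not be checked, and is not read as absence.

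Of the 10 direct effectors, RSAD2, CMPK2, SAMD9 and SAMD9L ran with ISG15 and OASL, and MX2 was lower in EFTUD2 cells. RSAD2, or viperin, which makes a chain-terminating nucleotide, was at 0.17, 0.15 and 0.13 FPKM with the empty vector, compared with 2.25, 8.37 and 0.12 FPKM in EFTUD2 cells. Only EFTUD2 replicates 1 and 2 were above the controls. The log2 fold change was 1.5 ± 0.68 (limma adjusted p = 0.41), or 2.26 ± 0.41 without EFTUD2 replicate 3 (limma adjusted p = 0.072). CMPK2, the nucleotide kinase gene next to RSAD2 on chromosome 2, was at 0.21 to 0.28 FPKM in control cells, against 0.44, 1.06 and 0.13 FPKM in EFTUD2 cells. The annotated spans of CMPK2 and RSAD2 overlap by 751 bases. SAMD9, a restriction factor of poxviruses, was at 0.80, 0.80 and 0.81 FPKM with the empty vector, compared with 1.41, 2.58 and 0.18 FPKM in EFTUD2 cells. SAMD9L, its close relative and neighbor on chromosome 7, had a listed value of 0 in all 3 controls, against 0.19, 0.74 and 0.01 FPKM in EFTUD2 cells. Its log2 fold change was 0.35 ± 0.19 (limma adjusted p = 0.43), or 0.53 ± 0.16 without EFTUD2 replicate 3 (limma adjusted p = 0.19), and it depended on the pseudocount, as given above.

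MX2, a dynamin-like GTPase that blocks nuclear import of viruses, ran the other way. It was at 12.96, 12.16 and 13.14 FPKM in control cells, against 10.23, 10.27 and 9.83 FPKM in EFTUD2 cells. All 3 EFTUD2 libraries were below the controls by a similar amount, with a log2 fold change of −0.31 ± 0.10 (limma adjusted p = 0.40, and 0.18 without EFTUD2 replicate 3). It was −0.19 with median-of-ratios scaling and −0.17 after quantile normalization. Its neighbor MX1, which traps viral nucleocapsids, was at 2.59 to 3 FPKM with the empty vector, compared with 2.58, 3.10 and 1.36 FPKM in EFTUD2 cells. ISG20, an RNA exonuclease, was at 15.75, 6.23 and 8.17 FPKM in control cells, against 7.59, 10.04 and 8.78 FPKM in EFTUD2 cells, a wide spread within the controls. GBP1, a GTPase that coats intracellular pathogens, was at 1.09 to 1.39 FPKM with the empty vector, compared with 1.20, 1.21 and 1.49 FPKM in EFTUD2 cells. It was the only member with its highest value in EFTUD2 replicate 3, whereas 20.5% of all genes had theirs there. TRIM21, an antibody receptor in the cytosol, was at 3.54 to 4.22 FPKM in control cells, against 3.02, 3.64 and 1.08 FPKM in EFTUD2 cells. PLSCR1, a membrane protein that limits virus entry, was at 11.64 to 14.14 FPKM with the empty vector, compared with 12.70 to 17.27 FPKM in EFTUD2 cells.

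Among the remaining induced genes, IFI44 and IFI27 were higher in every EFTUD2 library. IFI44 was at 0.26, 0.11 and 0.10 FPKM in control cells, against 3.49, 8.70 and 0.40 FPKM in EFTUD2 cells. EFTUD2 replicate 3 exceeded the controls only slightly. The log2 fold change was 1.77 ± 0.63 (limma adjusted p = 0.40), or 2.52 ± 0.31 without EFTUD2 replicate 3 (limma adjusted p = 0.033). IFI27, a small mitochondrial protein, was at 0.55, 0.26 and 0.77 FPKM with the empty vector, compared with 1.14, 1.32 and 1.06 FPKM in EFTUD2 cells. Here the 3 EFTUD2 libraries were alike, with a log2 fold change of 0.52 ± 0.15 (limma adjusted p = 0.40), or 1.26 with a pseudocount of 0.01. IFI6, an antiviral protein of the endoplasmic reticulum, was at 10.03, 4.89 and 6.68 FPKM in control cells, against 8.40, 14.62 and 10.28 FPKM in EFTUD2 cells. IFI35 was at 20.69 to 24.98 FPKM with the empty vector, compared with 24.05, 27.42 and 12.35 FPKM in EFTUD2 cells. XAF1, a promoter of apoptosis, was at 0.99 to 1.08 FPKM in control cells, against 1.14, 1.51 and 0.89 FPKM in EFTUD2 cells. In these 3 genes EFTUD2 replicate 2 was highest, and the groups overlapped. LGALS3BP, a secreted glycoprotein, was the most abundant member per length, at 163.67 to 239.08 FPKM with the empty vector, compared with 229.37 to 256.37 FPKM in EFTUD2 cells. IFI44L and EPSTI1 were below the filter, at no more than 0.25 and 0.07 FPKM. The ADP-ribosyltransferase family genes PARP9 and PARP14 and the partner DTX3L had median log2 fold changes of −0.04 with all libraries and 0.16 without EFTUD2 replicate 3. Their groups overlapped, and EFTUD2 replicate 3 was lowest for PARP9 and DTX3L but inside the control range for PARP14. PARP9 ranged from 3.65 to 5.26 FPKM in the controls and was at 4.98, 6.5 and 2.51 FPKM in EFTUD2 cells. DTX3L ranged from 6.49 to 8.91 FPKM in the controls and was at 8.10, 9.44 and 4.08 FPKM in EFTUD2 cells. PARP14 ranged from 5.62 to 8.99 FPKM in the controls and was at 7.89, 8.27 and 5.78 FPKM in EFTUD2 cells.

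**Figure D3:**
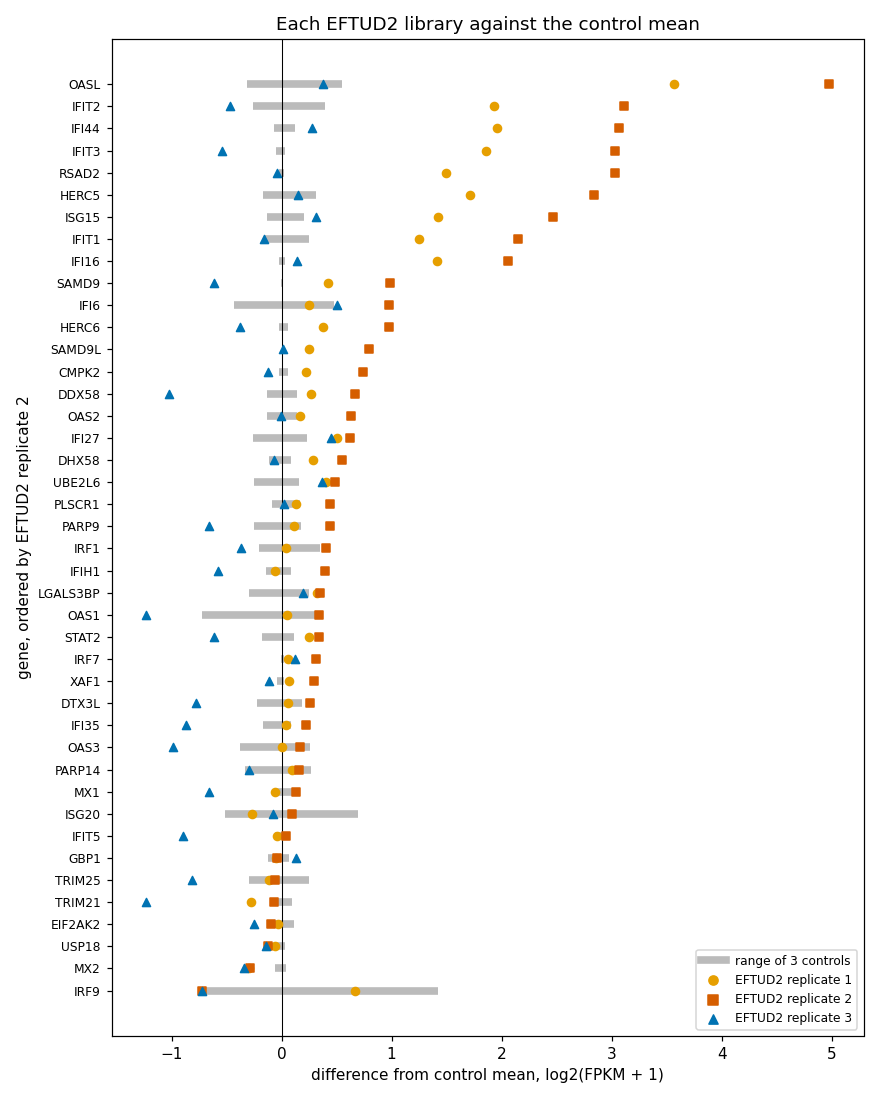
Difference of each EFTUD2 library from the control mean, in log2(FPKM + 1), for the 42 tested genes ordered by EFTUD2 replicate 2, with the range of the 3 controls in gray. From OASL down to IFI16 the points of replicates 1 and 2 lie well to the right of the gray bars, while the triangles of replicate 3 stay near or left of 0 for most genes.

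The increase over the controls in EFTUD2 replicates 1 and 3 was also expressed relative to that in replicate 2. For description only, 14 members were taken after their values were seen, because EFTUD2 replicate 2 was at least 2 times the highest control and at least 0.5 FPKM. The ratios thus use the value that chose the genes. They were ISG15, HERC5, HERC6, OAS2, OASL, IFIT1, IFIT2, IFIT3, IFI16, RSAD2, CMPK2, SAMD9, SAMD9L and IFI44. Their increase over the control mean in EFTUD2 replicate 1 was 0.359 of that in replicate 2 (median, range 0.215 to 0.525). In EFTUD2 replicate 3 it was −0.00953 of that in replicate 2 (median, range −0.351 to 0.0531). As the divisor is large, this ratio is small also where EFTUD2 replicate 3 exceeded the controls: it was below every control for 7 of the 14 and above every control for 4, with IFI16 at 7.2 times and IFI44 at 2.55 times the control mean. Of these 4, IFI16 and SAMD9L were near the floor in that library, at 0.12 and 0.01 FPKM, and SAMD9L had listed values of 0 in the controls. The same motif was found in 6 of 11 promoters of the 14 genes and in 14 of 24 promoters of the other 28 tested members. In those 28, the median ratio to the control mean was 1.03, 1.21 and 0.752 in EFTUD2 replicates 1, 2 and 3.

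Some genes that are not hepatocyte markers ran in a similar order. A list of 7 genes, called here basal epithelial and mesenchymal genes (VIM, LDHB, KRT17, KRT7, KRT5, KRT14 and CD44), was chosen with earlier results of these data known. The name does not mean that each gene is specific to such cells. Its summed level was 1.97 to 3.01 FPKM in control cells, against 144, 318 and 16.3 FPKM in EFTUD2 replicates 1, 2 and 3, with KRT5 at 0 throughout and 5 of 7 genes above the controls in every EFTUD2 library. Their increase in EFTUD2 replicate 1 was 0.424 of that in replicate 2 (median of 6 genes, range 0.347 to 0.49), and in replicate 3 it was 0.0534 of it (range −0.0031 to 0.105). For immune cells that make or respond to interferon, PTPRC was at no more than 0.02 FPKM, TYROBP, CD3E and CD2 were at 0, and the summed plasmacytoid dendritic cell markers reached 0.24 FPKM. Other markers of the same lists were present: CD14 was at 0.60 to 1.03 FPKM in control cells, against 1.41, 2.06 and 2.51 FPKM in EFTUD2 cells, and CD3D ranged from 0.92 to 2.21 FPKM over all libraries. By summed level, the macrophage list was at 744 to 2262 FPKM in control and 852 to 1724 FPKM in EFTUD2 libraries, and the T and NK cell list at 1.07 to 2.25 and 1.24 to 2.44 FPKM. LYZ, in the macrophage list, was high in all libraries of both groups, from 743.62 to 2261.43 FPKM. A fibroblast list summed to 0.51 to 1.58 FPKM in control libraries, against 2.86, 4.82 and 2.33 FPKM in EFTUD2 replicates 1, 2 and 3, with COL1A2 at 0 throughout. Within it, COL1A1 (0.78, 2.05 and 0.11 FPKM), COL3A1 (0.62, 1.49 and 0.14) and LUM (0.35, 0.56 and 0.01) were highest in EFTUD2 replicate 2. In the controls these 3 genes reached at most 0.15, 0 and 0.01 FPKM. PDGFRB was highest in EFTUD2 replicate 3, at 1.10, 0.68 and 2.07 FPKM, against 0.41 to 1.43 FPKM in the controls. DCN was at no more than 0.04 FPKM. An endothelial list summed to 1.09 to 1.53 FPKM in control and 1.28 to 1.6 FPKM in EFTUD2 libraries. In this list CDH5 and VWF were above every control in all EFTUD2 libraries, PECAM1 was below, and KDR was at no more than 0.01 FPKM. The part of the basal epithelial and mesenchymal genes, of the fibroblast and endothelial genes and of CD14 in the interferon result was not tested.

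**Figure D4:**
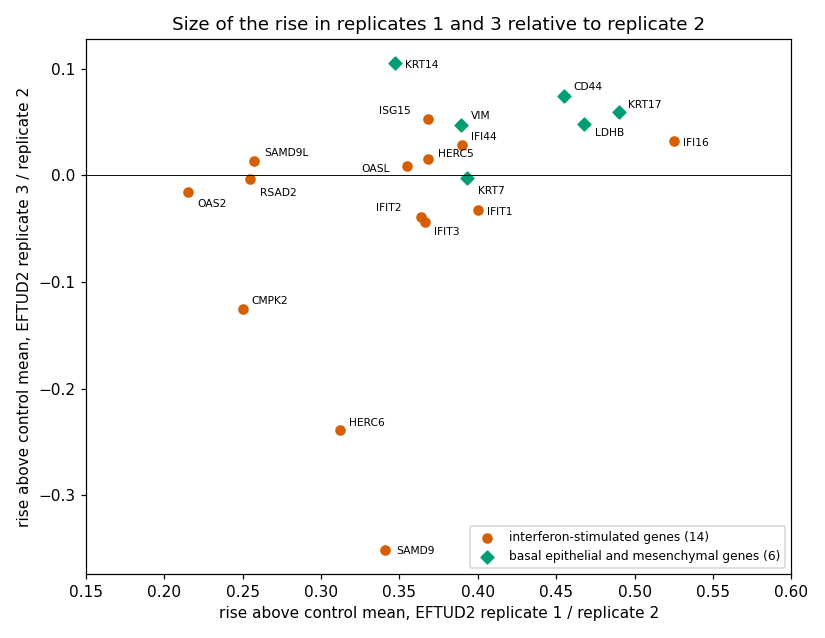
Increase over the control mean in EFTUD2 replicate 1 (x axis) and replicate 3 (y axis), each divided by that in replicate 2, for 14 interferon-stimulated genes (circles) and 6 basal epithelial and mesenchymal genes (diamonds). The circles spread from 0.215 to 0.525 on the x axis, and both sets lie at or below about 0.105 on the y axis, with SAMD9 and HERC6 lowest.

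Upstream genes of the pathway, its brakes and other interferon-induced genes were described from lists of 106 genes, of which 91 were in the table and 78 were tested. Most of the tested genes, 44 of the 78, were other interferon-induced genes, among them CCL5 and DDX60. With all 6 libraries 0 of the 78 passed an adjusted p of 0.05 in limma, and 3 did without EFTUD2 replicate 3 (CGAS, CCL5 and DDX60, all higher in EFTUD2 cells, where 0.891% of all genes were called higher). Interferon genes themselves were scarce: 9 of 21 listed ligands were in the table, and the highest value was 0.47 FPKM, for IFNL1, a type III interferon. IFNL1 was at 0.03, 0.06 and 0.09 FPKM with the empty vector, compared with 0.18, 0.47 and 0.03 FPKM in EFTUD2 cells. EFTUD2 replicates 1 and 2 were above the controls, and replicate 3 was level with the lowest of them. Among 9 receptor and kinase genes, the groups did not overlap for IFNGR2, which was higher in EFTUD2 cells, and for IL10RB and TYK2, which were lower. Without EFTUD2 replicate 3 the log2 fold change of IFNGR2 was 0.20 in place of 0.40, and that of TYK2 was −0.10 in place of −0.24. IFNGR2, a chain of the type II interferon receptor, was at 37.70 to 41.38 FPKM in control cells, against 46.58, 43.66 and 68.76 FPKM in EFTUD2 cells, here with replicate 3 highest.

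Of 13 sensing and adaptor genes tested, CGAS was above the controls in every EFTUD2 library, and MYD88, TRAF3, IRF3 and MAVS were below them, beside 7.93% and 19.4% of all genes. With median-of-ratios scaling the log2 fold change of IRF3 was −0.10 in place of −0.22 and that of MAVS −0.05 in place of −0.17. Without EFTUD2 replicate 3, MYD88 was at −0.15 in place of −0.43 and TRAF3 at −0.20 in place of −0.34. CGAS, the cytosolic DNA sensor, was at 0.04, 0.06 and 0.06 FPKM in control cells, against 0.73, 1.26 and 0.10 FPKM in EFTUD2 cells. Its log2 fold change was 0.63 ± 0.24 (limma adjusted p = 0.40), or 0.91 ± 0.13 without EFTUD2 replicate 3 (limma adjusted p = 0.045). MAVS, the adaptor of RIG-I and MDA5, was at 23.55 to 24.76 FPKM with the empty vector, compared with 21.14 to 21.73 FPKM in EFTUD2 cells. Of 11 genes that brake the pathway, 0 were above and 5 below the controls in every EFTUD2 library, compared with 7.93% and 19.4% of all genes. PTPN11, 1 of the 5, had a log2 fold change of 0.00 with median-of-ratios scaling. TRIM24, a repressor of interferon-stimulated genes, was at 62.43, 62.20 and 52.97 FPKM in control cells, against 45.44, 38.09 and 24.78 FPKM in EFTUD2 cells, a log2 fold change of −0.74 ± 0.22 (limma adjusted p = 0.40), or −0.49 ± 0.12 without EFTUD2 replicate 3 (limma adjusted p = 0.13) and −0.36 with array weights. Of 44 other interferon-induced genes tested, 8 were above and 6 below the controls in every EFTUD2 library, again beside 7.93% and 19.4% of all genes. CCL5, a chemokine, was at 2.24, 1.12 and 1.17 FPKM with the empty vector, compared with 11.53, 36.94 and 2.30 FPKM in EFTUD2 cells. DDX60, a helicase that aids RIG-I, was at 0.18, 0.10 and 0.12 FPKM in control cells, against 2.18, 4.49 and 0.23 FPKM in EFTUD2 cells. In both, EFTUD2 replicate 2 was highest and replicate 1 next, with replicate 3 slightly above the controls. Without EFTUD2 replicate 3 the log2 fold change was 3.15 ± 0.46 for CCL5 (limma adjusted p = 0.048) and 1.88 ± 0.22 for DDX60 (limma adjusted p = 0.030).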

How the data were processed

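RNA-Seq of 3 control and 3 EFTUD2 libraries of Hep G2 cells was analysed, with groups and replicate numbers taken from the labels. The authors extracted RNA with TRIzol, selected poly-A RNA and sequenced it on the BGISEQ-500 platform. The authors deposited FPKM per gene, rounded to 2 decimals, in 1 table. The submitters' processing notes name HISAT2, Bowtie2, RSEM, DESeq2 and hg38, and versions, annotation and strandedness are not given in the sources used here. No counts were used and the depth is unknown: in the search for a common step per read, no more than 2.22% of 3376 low genes shared 1 ratio between libraries. The small number of libraries limits precision, and how far the depth does so is not known.

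From the FPKM values, log2(FPKM + 1) was computed, and genes averaging 0.1 FPKM or more over the libraries (17224 genes) were compared with limma 3.58.1 (lmFit, eBayes with trend) in R 4.3.3, with Benjamini-Hochberg adjustment over all of them. An exact two-sided permutation test of 3 against 3 cannot go below p = 0.1. Gene positions and promoters are those of RefSeq for GRCh38.p14, and 10 of the 44 members overlap a protein-coding gene, so their values are uncertain if strand was not counted. A direction with full statistics was given for members whose groups do not overlap or whose unadjusted p was under 0.05, at most 25, and for at most 5 genes of each pathway list whose groups do not overlap. IFIT1, IFIT2, IFIT3 and RSAD2 were given statistics after their values were seen. Outside this rule, DDX58, DHX58, IFIH1, STAT2 and IRF1 were given the statistics of the fit without EFTUD2 replicate 3. The members, lists and rules were chosen with earlier results of these data known. Counts and fold changes given with a test were recomputed under up to 15 alternatives, fewer where a low gene did not pass an alternative's filter: pseudocounts of 0.1 and 0.01, a filter at 1 FPKM or none, 3 scalings of the libraries, array weights, a replicate block, and each library left out. The test was checked on simulated data. Python 3.11.15, pandas 2.3.3, scipy 1.17.1 and matplotlib 3.10.9 were used for the tables and plots. Some results for single genes are left out of the text.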

Additional observations from a re-analysis of the deposited data

How the results depend on the processing

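The 3 libraries per group, an unknown depth and 1 library that stood apart limit these results. The count of members with an adjusted p under 0.05 in limma was 0 with all libraries and 10 with array weights, and it was 0 to 5 when 1 library was left out (5 without EFTUD2 replicate 3). The count higher at an unadjusted p was 7, 17 with array weights and 2 to 19 with 1 library left out. The count lower was 1, and 0 with median-of-ratios scaling, after quantile normalization and with the replicate block, and 0 to 1 with 1 library left out. Members above every control numbered 7, but 3 with a mean of at least 1 FPKM (where fewer genes were tested), 11 with median-of-ratios scaling and 5 to 22 with 1 library left out. Members below every control numbered 2, but 1 with median-of-ratios scaling and 1 after quantile normalization, and 2 to 4 with 1 library left out. Pathway genes with an adjusted p under 0.05 numbered 0, but 9 with array weights and 0 to 3 with 1 library left out. The members' median log2 fold change of 0.12 ranged from −0.03 to 0.29 with 1 library left out, and was 0.00 with a mean of at least 1 FPKM. EFTUD2 itself passed the threshold with array weights (log2 fold change 1.15, adjusted p = 0.0018 in limma) and without EFTUD2 replicate 3 (1.14, adjusted p = 0.028 in limma), and its fold change was 1.07 to 1.26 with 1 library left out. USP18 turned from −0.11 to 0.00 with median-of-ratios scaling and to 0.03 after quantile normalization. Apart from what the fewer genes or libraries of an alternative account for, the cause was not tested. Deviations of same-numbered libraries of the 2 groups had correlations of −0.299, 0.353 and −0.0936, against −0.397 to 0.382 for differently numbered ones. With 3 libraries per group, these values cannot decide whether the numbers pair the samples. The replicate block gave 0 members at an adjusted p under 0.05, 9 higher and 0 lower at an unadjusted p.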

Other observations

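Some other interferon-induced genes, chosen after their values were seen, ran in the opposite order, with EFTUD2 replicate 3 highest. GBP2, a relative of GBP1, was at 2.99, 2.42 and 2.92 FPKM with the empty vector, compared with 2.19, 1.82 and 7.41 FPKM in EFTUD2 replicates 1, 2 and 3. TNFSF10, the death ligand TRAIL, was at 2.48, 1.5 and 1.87 FPKM in control cells, against 1.71, 1.72 and 3.91 FPKM in EFTUD2 cells. APOBEC3G, a cytidine deaminase, was at 1.17, 0.91 and 0.81 FPKM with the empty vector, compared with 1.39, 1.26 and 2.55 FPKM in EFTUD2 cells. The chemokines CXCL10 and CXCL11 instead ran with OASL, CXCL10 at 0.12, 0.62 and 0.06 FPKM and CXCL11 at 0.13, 0.60 and 0.02 FPKM in the EFTUD2 libraries, against at most 0.02 and 0.01 FPKM in the controls.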
